A study of Caenorhabditis elegans with 27 samples.

Results

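The left piRNA cluster of *Caenorhabditis elegans* chromosome IV was taken as every gene of class piRNA, named 21ur in the Ensembl annotation of WBcel235, whose start lies on chromosome IV from 4.5 to 7.0 Mb. The annotation places 2816 piRNAs there. Of these, 1687 (59.9%) had a row in the deposited table of 20150 small RNAs (sRNAs), and the other 1129 are not analysed here. The listed members were compared with the right cluster of the same chromosome, which lies from 13 to 18 Mb and has 7592 listed piRNAs of 11574 annotated, and with the 570 remaining listed piRNAs.

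piRNAs of *C. elegans*, also called 21U-RNAs, are germline sRNAs that are each transcribed from a gene of their own and bound by the Argonaute PRG-1. Their precursors are trimmed at the 3′ end by the exonuclease PARN-1, and the mature RNA is methylated at its 3′ end by HENN-1. PRG-1 loaded with a piRNA recognizes transcripts by base pairing and directs the synthesis of secondary siRNAs against them. Poly(U) polymerases (PUPs) add uridine to the 3′ ends of RNAs, and the comparisons below ask whether piRNA levels of the left cluster differ when 1 or more PUPs are lost.

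The 27 libraries came from whole hermaphrodites, as adults of day 1 grown at 22 °C, and each mutant strain gave 3 libraries. The single mutants were *pup-1(tm1021)*, *pup-2(tm4344)*, *pup-3(tm5089)* and *pup-4(om141)*, written below as (0). The *pup-1/-2(om129)* double mutant lacks both neighbouring genes, the triple mutant adds *pup-3(tm5089)* and the quadruple mutant adds *pup-4(om141)* as well. These strains were set against 6 libraries of N2 wild type. According to the methods of the study, mutants kept over a balancer were F2 animals without maternal or zygotic gene product, and strains were raised in parallel. In such bulk samples, fewer germ cells and less piRNA per cell cannot be told apart.

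Between 972048 and 17562388 counts were listed per library, and levels are given in CPM, counts divided by a TMM-scaled library size in the usual counts-per-million unit. A count of 3 was worth 3.74 CPM at the lowest depth and 0.144 CPM at the highest, and such floors, like the counting intervals below, reflect counting error alone. piRNAs took from 1.78 to 5.72% of a library. Wild-type replicate 1 stood apart from the other 5 wild-type libraries, with 4575 CPM for the summed left cluster against 556 to 1043 CPM and 76571 CPM for the right cluster against 20126 to 27787 CPM. Its remaining piRNAs, at 1711 CPM, lay within the range of the wild-type libraries, 1310 to 1824 CPM. Wild-type values and comparisons that this library sets are therefore also given without it. miR-35 family miRNAs (8 of 8 listed), which mark the germline and embryos, summed to between 12167 and 130021 CPM over all mutant libraries and between 22718 and 93851 CPM in wild type. No member of that list was at 0 throughout, and the part of embryo or germline content in the results below was not tested.

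The members occupied the interval from position 4767704 to position 6997474, with 818 on the plus and 869 on the minus strand. Neighbouring annotated starts were a median of 335 bases apart, against 167 bases in the right cluster. By the annotation, 774 members (45.9%) lay in introns, 767 (45.5%) between genes and 146 (8.65%) on exons of other genes. Protein-coding exons held 116 members, and 51 lay on an exon of a gene whose siRNAs are listed. Such rows may include siRNA reads, since reads on both strands were counted. In the right cluster 30.0% lay in introns and 64.8% between genes. Members in introns carried 50.9% of the summed wild-type level, intergenic members 36.2% and exonic members 12.9%, or 48.6, 34.8 and 16.6% in this order without wild-type replicate 1. The 774 intronic members fell into 146 host genes. The most were in *kcc-2*, which encodes a potassium-chloride cotransporter (63 members), and in *unc-5*, which encodes a netrin receptor (59 members). Next came *fkh-7*, a forkhead transcription factor gene (43 members), and *unc-77*, which encodes a sodium leak channel (37 members). Of the intronic members, 365 were on the strand of the host gene and carried 16.1% of the wild-type level, and 409 were on the opposite strand and carried 34.8% (15.6 and 33.0% without wild-type replicate 1). Much of the opposite-strand level came from 21ur-5622, 21ur-8472 and 21ur-2309, with wild-type means of 149, 104 and 53.4 CPM.

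piRNAs of the left cluster often overlap each other, which limits what a single row can show. Of the 2816 annotated piRNAs, 1000 overlap another, 948 of them on the same strand. Only 40.6% of the overlapping ones were listed, against 70.5% of those that overlap no other. Of the 1129 unlisted piRNAs, 452 overlap a listed one, and 390 listed members overlap an unlisted one. Those 390 carried 32.0% of the wild-type level (30.4% without replicate 1), so their counts may include reads of an overlapping piRNA.

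Members were unevenly spread along the interval, and their level was more uneven still. Windows of 0.1 Mb held up to 220 annotated piRNAs. A share of 45.9% of the wild-type level came from 5.5 to 6.0 Mb, where 587 of the 1687 members lie, and 33.4% came from 6.0 to 6.5 Mb, with 424 members. The 143 members below 5.0 Mb carried 4.5%, and the 129 members above 6.5 Mb carried 3.93%. Without wild-type replicate 1 these windows held 46.8, 32.5, 5.29 and 3.29%, in the order given. The edges of the interval were sparse in level, since 9 listed piRNAs from 4.0 to 4.5 Mb summed to 0.185 ± 0.272 CPM and 27 from 7.0 to 7.5 Mb to 11.3 ± 4.73 CPM (SD, n = 6 wild-type libraries).

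**Figure D1:**
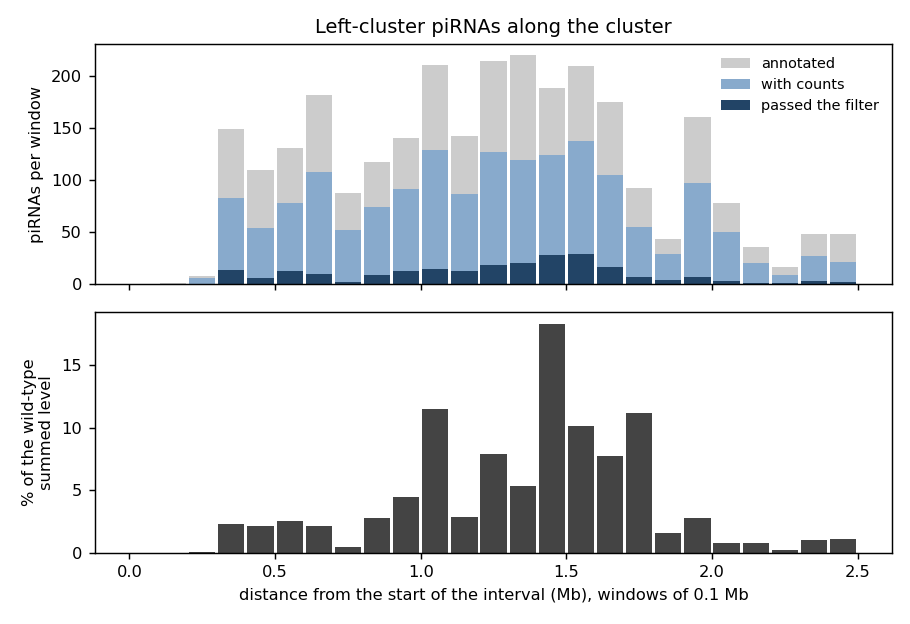
Left-cluster piRNAs in windows of 0.1 Mb, by distance from the start of the interval in Mb. The upper panel counts annotated piRNAs, those listed with counts and those that passed the filter, and the lower panel gives each window's percent of the summed wild-type level (mean of 6 libraries); 4 windows with at least 10% each hold 51.1% of it.

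Most members were rare. In wild type 564 of the 1687 members had no count in any of the 6 libraries, 196 reached a mean of 1 CPM, 24 reached 10 CPM and 3 reached 100 CPM. Without wild-type replicate 1 the numbers were 611, 136, 13 and 1. Only 70 members were counted in all 27 libraries, and 299 were counted in 1 library. The median member had 10 counts in total over the 27 libraries, against 23 in the right cluster. All annotated piRNAs here are 21 bases long, so levels compare directly between them. A listed right-cluster piRNA had on average 5.88 ± 1.82 times the CPM of a listed left-cluster piRNA (SD, n = 6 wild-type libraries; 6.31 ± 1.65 without replicate 1), and the right mean was above the left in 27 of 27 libraries, by 3.0 to 8.66 times.

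A few members made up much of the level. The first 3 in wild type carried 25.0% of the summed level and the first 10 carried 40.5%, against 8.73 and 18% in the right cluster. Without wild-type replicate 1 the values were 27.3 and 40.1% in the left and 7.22 and 17.8% in the right cluster. A share of 50% of the level came from 20 members in the left cluster and from 73 in the right (19 and 69 without replicate 1). The 3 are 21ur-5622, 21ur-1430 and 21ur-8472, and 1 of them had the highest level of all members in 26 of 27 libraries, the exception being triple mutant replicate 1, where 21ur-3128 led.

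The member with the highest mean over the 6 wild-type libraries was 21ur-5622 (WBGene00173994, chromosome IV 6281641 to 6281661, plus strand), in an intron of *srv-32*, a serpentine receptor gene on the opposite strand. It stood at 24.2, 206 and 131 CPM in *pup-1(0)*, at 39.2, 353 and 321 CPM in *pup-2(0)* and at 33.7, 156 and 199 CPM in *pup-3(0)*. The *pup-4(0)* libraries had 64.1, 97.1 and 58.0 CPM, the double mutant 68.2, 224 and 191 CPM, the triple mutant 24.8, 187 and 131 CPM and the quadruple mutant 62.9, 65.6 and 55.0 CPM. Wild type ran from 58.1 to 468 CPM with a median of 95.1 CPM. Its first rank rested on wild-type replicate 1, since its mean was 149 CPM with that library and 85.1 CPM without it, against 118 and 105 CPM for 21ur-1430, which led in 3 of the 6 wild-type libraries. In the *pup-1*, *pup-2* and *pup-3* single mutants and the triple mutant, replicate 1, which had between 972048 and 1694632 counts, lay below both other replicates and below every wild-type library. No strain was called different from wild type for this piRNA (log2 fold changes from -1.25 to 0.71, lowest adjusted p = 0.238 by the quasi-likelihood test of edgeR after Benjamini-Hochberg correction).

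The second member, 21ur-1430 (WBGene00046613, chromosome IV 5566428 to 5566448, plus strand), lies inside a mature miRNA. The annotated mature product of *cel-mir-790* runs from 5566427 to 5566448 on the same strand, so it contains all bases of 21ur-1430. Both have a row in the table, and the counts of 21ur-1430 were 82.0 to 96.9% of those of *cel-mir-790* over the 27 libraries, with a median of 93.8% and the lower value in 27 of 27. In *pup-3(0)* replicate 2, for example, 2840 counts stood under 21ur-1430 and 2970 under *cel-mir-790*. The table gives no means to divide these reads between a piRNA and a miRNA.

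**Figure D2:**
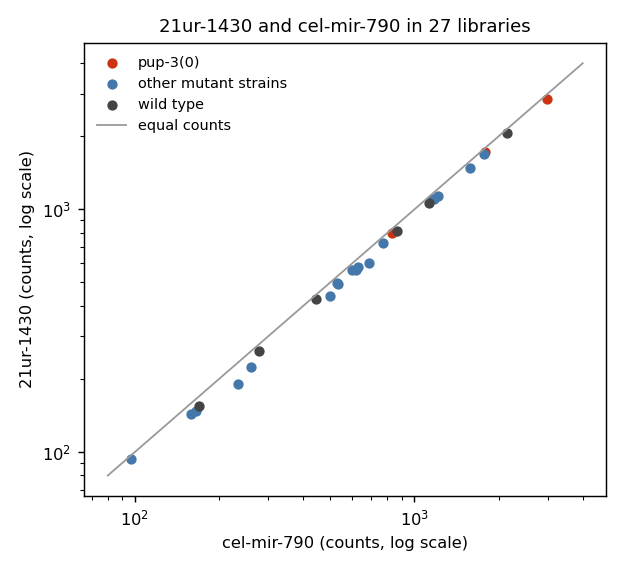
Counts of 21ur-1430 against counts of *cel-mir-790*, both on log scales, with 1 point per library and a line of equal counts. All 27 points lie just under the line, at 82.0 to 96.9% of the miRNA's counts.

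In *pup-3(0)* the row of 21ur-1430 stood at 993, 299 and 364 CPM, against 49.1 to 184 CPM (median 131 CPM) in wild type, so the groups did not overlap. The log2 fold change, 2.21 with a standard error of 0.53, did not pass the threshold (adjusted p = 0.0710 in edgeR's test). For *cel-mir-790* itself edgeR gave 2.20 on the log2 scale, with an adjusted p of 0.0657. The triple mutant was at 63.0, 30.1 and 29.1 CPM, with 2 of 3 libraries below every wild-type library (log2 fold change -1.58, adjusted p = 0.0547 in edgeR's test). The remaining strains overlapped wild type, with 309, 118 and 124 CPM in *pup-1(0)*, 75.2, 93.7 and 66.9 CPM in *pup-2(0)* and 76.5, 49.3 and 35.5 CPM in *pup-4(0)*. The double mutant had 24.5, 232 and 251 CPM. The quadruple mutant had 48.8, 81.3 and 39.7 CPM, with 2 of 3 libraries below every wild-type library, as in the triple mutant. Leaving out wild-type replicate 1 lowered the wild-type mean of this row to 105 CPM, against 118 CPM with it.

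The third member, 21ur-8472 (WBGene00168796, 5920609 to 5920629, minus strand), lies in an intron of *dhhc-13*, on the opposite strand. It had 21.7, 76.5 and 202 CPM in *pup-1(0)*, 40.2, 43.3 and 41.7 CPM in *pup-2(0)*, 24.9, 50.7 and 46 CPM in *pup-3(0)* and 58.2, 92.8 and 56.9 CPM in *pup-4(0)*. The double mutant had 142, 103 and 102 CPM, the triple mutant 42.9, 52.5 and 76.5 CPM and the quadruple mutant 94.5, 104 and 77.3 CPM. Wild type ran from 24.1 to 388 CPM with a median of 56 CPM, and to 69.9 CPM without replicate 1. All 3 libraries of the double and of the quadruple mutant then lay above the 5 other wild-type libraries. It led all members in each of the 3 quadruple mutant libraries but in none of the wild-type libraries. Its log2 fold changes ran from -1.27 in *pup-2(0)* to 0.20 in the double mutant, and none passed the test.

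The next members of the first 10 were lower. 21ur-6053 (intergenic) had a wild-type mean of 59.0 CPM that fell to 14.8 ± 6.98 CPM without wild-type replicate 1 (SD, n = 5), against 34.3 ± 14.2 CPM in the quadruple mutant and 38.4 ± 19.9 CPM in the double mutant (SD, n = 3 each). 21ur-2309 (intron of *H04M03.12*) had a wild-type mean of 53.4 CPM (25.4 CPM without replicate 1), 21ur-3128 (intergenic) one of 33.1 CPM (19.3 CPM) and 21ur-5083 one of 25.1 CPM (11.4 CPM). 21ur-5083 lies on an exon of the noncoding RNA gene *B0350.77* on the same strand, within *unc-44*, which encodes an ankyrin. The last 3 were 21ur-4253 (20.7 CPM, and 9.30 CPM without replicate 1) in an intron of *ehn-3*, 21ur-4021 (20.3 and 9.25 CPM) in an intron of *kcc-2* and 21ur-14741 (19.0 and 7.73 CPM) between genes. Without that library, 21ur-2309 ranked at 4, 21ur-3128 at 5 and 21ur-6053 at 6, and the last 4 of the 10 ranked between 11 and 20. Wild-type replicate 1 was the highest wild-type library for all 10, which were chosen by a mean that includes it. None of the 10 was called in any of the 7 strains.

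The order of members was partly shared between strains. Of the 10 first in wild type, 8 were among the first 10 in the quadruple mutant, 7 each in *pup-2(0)*, *pup-4(0)* and the double mutant and 6 each in *pup-1(0)*, *pup-3(0)* and the triple mutant. The first 3 members of a strain carried 51.5% of its level in *pup-3(0)*, where 21ur-1430 alone had 39.3%. In *pup-1(0)* they carried 37.0%, and in the quadruple mutant 16.3%. Over the 237 members that passed the filter, Pearson's r of log2 CPM between replicates of 1 strain was 0.91 to 0.94 in *pup-4(0)*, 0.88 to 0.91 in the quadruple mutant, 0.56 to 0.82 in *pup-1(0)* and 0.55 to 0.91 in wild type. These correlations are across members, which are not independent replicates. The libraries of *pup-4(0)* and the quadruple mutant were also the deepest sets, with totals from 10118935 to 17562388 counts.

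The number of members with a count moved with depth. Between 926 and 1109 members had a count in the quadruple mutant and 794 to 889 in *pup-4(0)*, against 241 to 821 in wild type. At an equal depth of 972048 counts, the expected numbers were 332 to 446 in the quadruple mutant, 275 to 313 in *pup-4(0)* and 163 to 222 in *pup-3(0)*, against 130.3 to 411 in wild type. At that depth the quadruple mutant and wild type overlapped.

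The summed level of the left cluster overlapped between every mutant strain and wild type. It was 809, 962 and 1503 CPM in *pup-1(0)*, 1157, 1439 and 1505 CPM in *pup-2(0)*, 1453, 1264 and 1492 CPM in *pup-3(0)* and 1065, 1137 and 899 CPM in *pup-4(0)*. It was 1025, 1883 and 2281 CPM in the double mutant, 942, 1042 and 1292 CPM in the triple mutant and 1492, 1258 and 1105 CPM in the quadruple mutant. Wild type ran from 556 to 4575 CPM with a median of 957 CPM. The difference of mean log2 level from wild type was highest in the double mutant, at 0.54, and lowest in *pup-4(0)*, at -0.13. None passed a two-sided exact permutation test, with an adjusted p of 0.952 for each of the 7 strains (Benjamini-Hochberg over 7, n = 3 against 6, smallest possible unadjusted p 0.0119).

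Without wild-type replicate 1, the remaining 5 wild-type libraries averaged 869.6 ± 198 CPM (SD). All 3 libraries then lay above all 5 wild-type libraries in the *pup-2* and *pup-3* single mutants and the quadruple mutant, with log2 differences of 0.68, 0.72 and 0.59. Each had an unadjusted p of 0.0357 and an adjusted p of 0.0833 in the exact permutation test, and the double mutant had a difference of 0.95 (adjusted p = 0.0938, exact test). None of the 7 strains passed the threshold in this setting either. In *pup-3(0)* the row of 21ur-1430, whose reads are shared with *cel-mir-790*, made up 68.3, 23.6 and 24.4% of the level. The separation of *pup-3(0)* was not tested without that row in this setting. Differences in *pup-1(0)*, *pup-4(0)* and the triple mutant turned positive, at 0.31, 0.28 and 0.35.

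**Figure D3:**
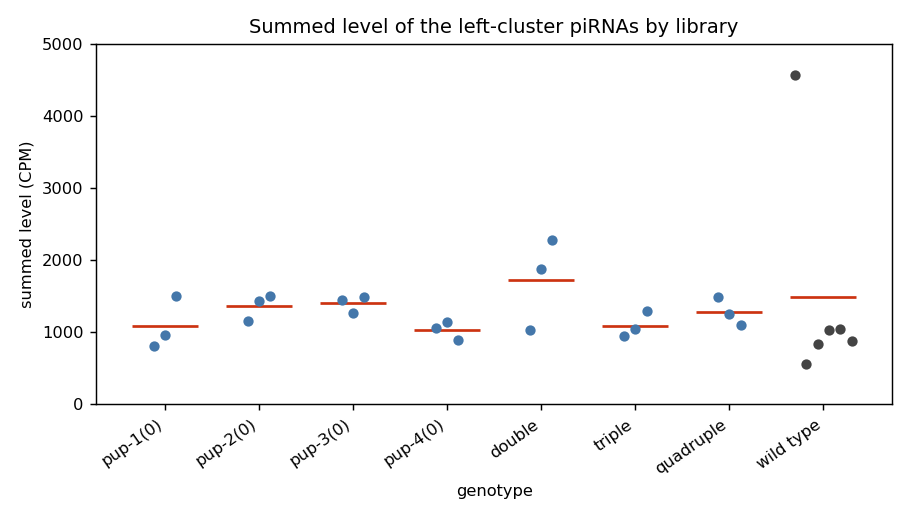
Summed level of the left-cluster piRNAs in CPM for each library, by genotype, with 3 points per mutant strain and 6 for wild type; red lines are means. One wild-type library at 4575 CPM lies above all others, and each mutant strain lies within the wild-type range of 556 to 4575 CPM.

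The level of *pup-3(0)* depended on exonic members. When members on exons of other genes, 21ur-1430 among them, were left out, the log2 difference of *pup-3(0)* was -0.33 in place of 0.32, and its sign also turned when the 10 most abundant members were left out (-0.33). By half-Mb window, *pup-3(0)* had a log2 difference of 0.69 from 5.5 to 6.0 Mb, where 21ur-1430 lies, and from -0.44 to -0.10 in the other 4 windows. The double mutant had a positive difference in all 5 windows, from 0.27 to 0.79. Leaving out the 10 most abundant members changed the double mutant's difference little, to 0.56.

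The share of the left cluster among the counts of both clusters needs no scaling of libraries and asks whether the left cluster moved differently from the right. It was 5.70, 6.27 and 5.43% in the quadruple mutant, 3.76, 5.87 and 6.58% in the double mutant and 4.87, 4.68 and 4.44% in *pup-4(0)*. It was 6.91, 3.04 and 3.07% in *pup-3(0)*, 4.5, 4.05 and 4.18% in the triple mutant, 4.70, 3.41 and 3.16% in *pup-1(0)* and 3.87, 3.84 and 3.23% in *pup-2(0)*. Wild type ran from 2.51 to 5.64% with a median of 3.98%. In order of their means, the quadruple mutant (5.80%) and the double mutant (5.40%) came first, followed by *pup-4(0)* (4.67%), *pup-3(0)* (4.34%), the triple mutant (4.24%), wild type (3.91%), *pup-1(0)* (3.76%) and *pup-2(0)* (3.65%). No neighbours in this order were separated by more than the spread of their libraries. Wilson 95% intervals were at most 0.760 percentage points wide.

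The quadruple mutant's share was 1.89 percentage points above wild type, with 2 of 3 libraries above all 6 wild-type libraries (unadjusted p = 0.0476, adjusted p = 0.333 over 7 strains, two-sided exact permutation test). Without wild-type replicate 1 the difference was 2.23 points, all 3 libraries lay above the 5 others (unadjusted p = 0.0179, the smallest possible, adjusted p = 0.125, exact test), and it was 1.61 to 2.23 points when any 1 library was left out. Wild-type replicates 1 to 3 alone gave 2.11 points, and wild-type replicates 4 to 6 alone gave 1.66 points. Beside this, the log2 difference in summed level between the quadruple mutant and wild type was 0.18 for the left cluster, -0.46 for the right cluster and -1.06 for the remaining piRNAs, without a test for the right cluster or the remaining piRNAs. The double mutant's share was 1.49 points above wild type (adjusted p = 0.5, exact test). The *pup-3(0)* difference of 0.430 points rested on replicate 1, the shallowest library, where 21ur-1430 made up 68.3% of the left-cluster level. The difference was -0.855 points without that library.

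**Figure D4:**
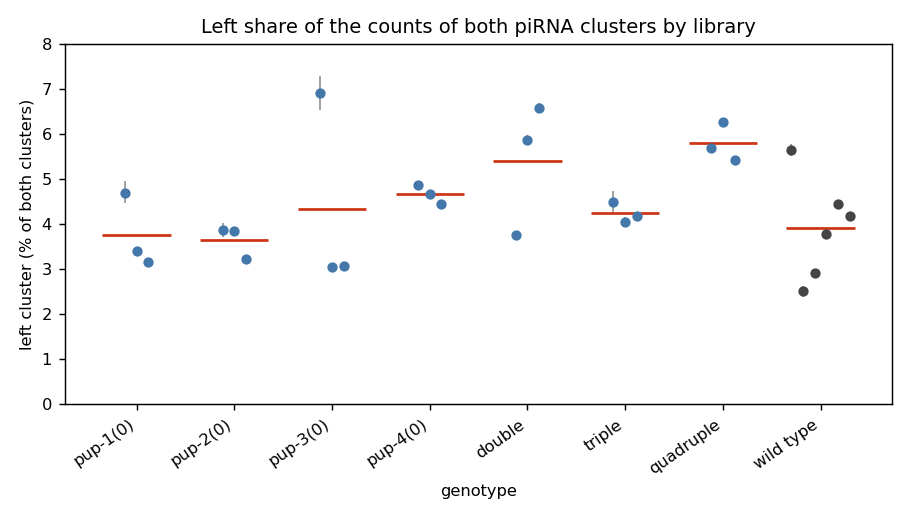
Counts of the left cluster in percent of the counts of both chromosome IV clusters, for each library by genotype; red lines are means and gray bars 95% Wilson intervals. The quadruple mutant libraries lie at 5.43 to 6.27% and wild type at 2.51 to 5.64%.

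Single members were tested with edgeR. A call required a log2 fold change beyond 1 in either direction together with an adjusted p below 0.05. Of the 1687 members 237 (14.0%) passed the filter on low counts, against 26.1% in the right cluster, so statements on calls cover the more abundant members only. A member that is high in 1 strain alone could pass through that strain. In counts simulated for the quadruple mutant, 12 of 50 left-cluster piRNAs given a log2 change of 2 were called. Of all 200 sRNAs changed in this way, 107 were called. The lack of a call therefore does not show that a member was unchanged. In *pup-1(0)* 4 members were higher and 9 lower than in wild type, where 7.44% of all sRNAs tested were called higher and 13.5% lower. These were 1.69 and 3.80% of the members, shares close to the 2.07 and 4.53% of the right cluster. In the double mutant 9 members were higher and 3 lower (background 8.65% higher and 12.5% lower), or 3.80 and 1.27% of members against 3.02 and 1.96% of right-cluster piRNAs. The triple mutant had 2 higher and 2 lower (background 5.73% higher and 11.9% lower), and the quadruple mutant had 6 higher and 0 lower (background 8.30% higher and 12.9% lower). Of the quadruple mutant's 237 tested members 15 (6.33%) had an unadjusted p under 0.05 in edgeR's test, beside 44.1% of all sRNAs tested. DESeq2 called 14 of 505 members higher and 3 lower, beside 2291 of 12699 sRNAs called in all. With all 27 libraries, the share of members called in the 4 strains that lack *pup-1* lay below the background in both directions. So did that of right-cluster piRNAs, and this difference was not tested. Without wild-type replicate 1, 55 of 226 members were higher in the double mutant. The background by direction is not available for that fit.

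No member was called by edgeR in the *pup-2*, *pup-3* or *pup-4* single mutant, which does not show that none changed. Few sRNAs of any kind were called there, namely 0.332% higher and 0.187% lower in *pup-2(0)*, 0.259% higher and 0.145% lower in *pup-3(0)* and 0% higher and 0.0518% lower in *pup-4(0)*. Among the members 18, 19 and 6 had an unadjusted p under 0.05 in edgeR's test in these strains, in that order. These were 7.59, 8.02 and 2.53% of members, beside 8.48, 11.2 and 7.13% of all sRNAs tested. DESeq2, which gave an adjusted p to 192, 254 and 9 members, called 0, 2 and 0. Of all sRNAs it called 108 of 9183, 109 of 9965 and 42 of 4516. The median log2 fold change of the tested members was -0.50 in *pup-1(0)*, 0.04 in *pup-2(0)*, -0.42 in *pup-3(0)*, and -0.08 in *pup-4(0)*. It was 0.22 for the double, -0.13 for the triple and 0.22 for the quadruple mutant. Over all sRNAs tested the median lay between -0.26 and -0.04 in all 7 strains.

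The number of calls depended on single libraries. Without wild-type replicate 1, the double mutant had 59 calls, 55 of them higher (26.1% of 226 members tested, beside 27.9% of all sRNAs tested), the triple mutant 14 (6.19% of members, beside 19.1%) and the quadruple mutant 13, all 13 higher (5.75%, beside 24.9%). Each share of all sRNAs tested pools both directions. Without the same library *pup-2(0)* had 3 calls (1.33%, beside 1.10%), *pup-3(0)* 1 (0.442%, beside 0.489%) and *pup-1(0)* 14 (6.19%, beside 21.4%). Fits without 1 library tested 226 to 294 members, and their calls over all sRNAs tested stand in parentheses below. In the double mutant the count was 38 without double replicate 1 (2379 of 10395). It was 6 and 4 without double replicates 2 and 3 (1719 of 10310 and 1755 of 10102). Without replicate 1 of *pup-1(0)*, *pup-2(0)* and *pup-3(0)* it was 19, 21 and 20 (2116 of 10376, 2110 of 10298 and 2102 of 10370). It was 19 and 7 without wild-type replicates 3 and 5 (2048 of 9793 and 1957 of 9631). In *pup-1(0)* it was 4 without its replicate 2 (1720 of 10405). Without wild-type replicates 2, 3 and 5 it was 21, 20 and 8 (2185 of 9781, 2226 of 9793 and 1998 of 9631). In the triple mutant it was 9 without double replicate 1 (1775 of 10395) and 2 without its own replicate 2 (1472 of 10393). Without wild-type replicates 2, 3 and 4 it was 7, 7 and 1 (1760 of 9781, 1771 of 9793 and 1583 of 9775). In the quadruple mutant it was 12 without double replicate 1 (2149 of 10395) and 11 without wild-type replicate 5 (2082 of 9631). It was 2 without its replicate 1 as without its replicate 2 (1739 of 10076 and 1685 of 10168). Without double replicate 1, *pup-3(0)* had 1 call (51 of 10395). With the replicate number as a block the quadruple mutant had 29 calls, 21 higher and 8 lower. These were 12.2% of members, beside 22.6% of all sRNAs tested, and included 5 of its 6 calls without the block. Mutant libraries are numbered 1 to 3, so wild-type replicates 4 to 6 had no mutant library in their blocks. Wild-type replicates 1 to 3 alone, without the block, gave 27 calls of 232 members, 19 higher and 8 lower (2212 of 9581 sRNAs). Wild-type replicates 4 to 6 alone gave 8 calls of 231 members, 7 higher and 1 lower (2150 of 9672 sRNAs).

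The 35 calls fell on 30 members, of which 5 were called in 2 strains in the same direction and none in more. All were of low to middling level, with wild-type means between 0.0736 and 13.7 CPM. In 8 of the 35 calls the mutant libraries all lay above, or all lay below, every wild-type library. The values of the named ones among these are given next, by strain.

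In *pup-1(0)* the largest of these rises was that of 21ur-10599 (WBGene00168349, 5922717 to 5922737, plus strand, intergenic). It had 3.72, 1.14 and 1.41 CPM, or 6, 7 and 13 counts, against 0 to 0.293 CPM in wild type, where 4 of 6 libraries had no count and the sum was 4. This was 4.11 on the log2 scale in edgeR (standard error 1.10, adjusted p = 0.00503). The ratio of summed counts per library size was 16.3, with a 95% counting interval from 5.65 to 64.2. 21ur-10599 was also called in the double mutant (0, 2.96 and 4.38 CPM, adjusted p = 0.00176 in edgeR's test), although 1 double mutant library had no count. The double mutant call was lost with 6 factors from replicate groups, where its log2 fold change was 1.43 (adjusted p = 0.623 in edgeR's test), and with the replicate block (0.0635). In the quadruple mutant it had 0.842, 0.385 and 0.637 CPM, above every wild-type library, but was not called (adjusted p = 0.0732 in edgeR's test).

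21ur-9348 (5832905 to 5832925, minus strand) lies on an exon of the snoRNA gene *C06E7.95* on the same strand, so its counts may hold snoRNA fragments. It had 1.86, 1.31 and 1.41 CPM in *pup-1(0)* against 0 to 0.95 CPM (median 0.293 CPM) in wild type (log2 fold change 2.04, standard error 0.70, adjusted p = 0.0259 in edgeR's test). 21ur-5973 (6058591 to 6058611, plus strand), in an intron of *kcc-2*, had 3.72, 4.57 and 6.95 CPM against 1.04 to 3.53 CPM (median 1.57 CPM) in wild type (log2 fold change 1.43, standard error 0.55, adjusted p = 0.0458 in edgeR's test). It was also called in the double mutant, with 1.32, 8.24 and 10.5 CPM. 21ur-224 (5861273 to 5861293, plus strand, intergenic) was lower, with 0, 0.163 and 0.217 CPM in *pup-1(0)*, from 0, 1 and 2 counts, against 0.292 to 3.64 CPM in wild type. Per library size, wild type had 6.26 times the *pup-1(0)* value, with a 95% counting interval from 2.01 to 31.4 (adjusted p = 0.0259 in edgeR's test).

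These calls in *pup-1(0)* differed in how they held when 1 library was left out. That of 21ur-10599 was kept in 27 of 27 such fits. The call of 21ur-224 was lost without any 1 of the 3 *pup-1(0)* libraries (adjusted p from 0.0627 to 0.0939 in edgeR's test), and that of 21ur-9348 without any of the same 3 or wild-type replicate 5 (0.0578 to 0.0720). The call of 21ur-5973 was lost in 16 of 27 such fits, among them those without *pup-1(0)* replicate 3 (adjusted p = 0.215) and without wild-type replicate 4 (0.108). Of 10 other settings, that of 21ur-10599 was lost in 2, namely the replicate block (0.0914) and wild-type replicates 1 to 3 alone (0.0748). The calls of 21ur-224, 21ur-9348 and 21ur-5973 were lost in 4, 6 and 7 of the 10, in this order, and with 6 factors the log2 fold change of 21ur-224 was -1.22 (adjusted p = 0.454).

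In the quadruple mutant the largest rise was that of 21ur-1022 (WBGene00050060, 5323996 to 5324016, minus strand), in an intron of *slc-46A*, a solute carrier gene on the opposite strand. It had 51, 24 and 46 counts, or 4.29, 1.16 and 3.26 CPM, against 0 to 4 counts, or 0 to 1.04 CPM, in wild type, with 3 of 6 libraries at 0. This was 3.57 on the log2 scale in edgeR (standard error 0.96, adjusted p = 0.00544). It was the only named call that was kept in each of 27 fits without 1 library and in each of the 10 other settings that tested it. With at most 4 counts in a wild-type library, it passed the filter through mutant libraries, mainly those of the quadruple mutant. Its stability is therefore no independent support. In *pup-4(0)*, which shares the *pup-4* allele, it had 1.32, 0.352 and 0.940 CPM and was not called (adjusted p = 0.726 in edgeR's test). The *pup-3(0)* libraries had no count of it.

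21ur-12014 (5495644 to 5495664, plus strand) lies opposite an exon of *unc-5*, so its counts may hold siRNA reads antisense to that exon. It had 3.03, 1.59 and 0.991 CPM in the quadruple mutant against 0 to 0.742 CPM (median 0.203 CPM) in wild type (log2 fold change 2.28, standard error 0.77, adjusted p = 0.0231 in edgeR's test). 21ur-10647 (6077771 to 6077791, minus strand) lies in an intron of *ugt-19*, a UDP-glucuronosyltransferase gene. It had 4.55, 2.74 and 4.04 CPM against 0 to 2.12 CPM (median 0.957 CPM) in wild type (log2 fold change 1.92, standard error 0.62, adjusted p = 0.0169 in edgeR's test). In *pup-4(0)* 21ur-10647 had 3.75, 2.90 and 4.20 CPM, also above every wild-type library, with a log2 fold change of 1.86 that did not pass (adjusted p = 0.557 in edgeR's test). The call of 21ur-12014 was lost without quadruple replicate 1 (adjusted p = 0.149 in edgeR's test), quadruple replicate 2 (0.0504) or wild-type replicate 4 (0.0514), and that of 21ur-10647 without quadruple replicate 1 (0.0631) or 3 (0.0513). In the 10 other settings they were lost in 4 and 2 cases, in this order.

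**Figure D5:**
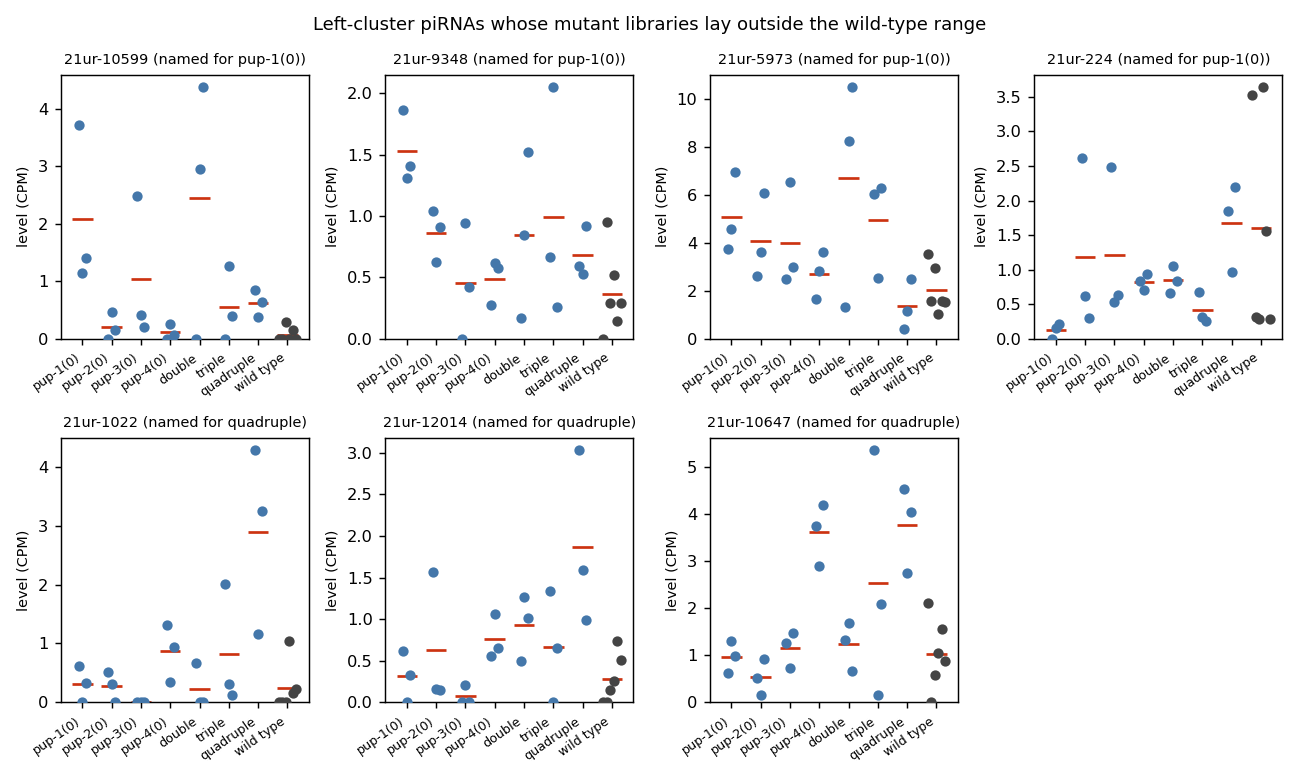
Level in CPM of 7 left-cluster piRNAs for each library by genotype, with red lines as means. They were called in *pup-1(0)* or the quadruple mutant, with the libraries of that strain all above, or all below, every wild-type library. 21ur-10599 reaches 3.72 CPM in *pup-1(0)* and at most 0.293 CPM in wild type, and 21ur-1022 reaches 4.29 CPM in the quadruple mutant and at most 1.04 CPM in wild type.

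In other calls the mutant libraries did not all lie above, or all below, every wild-type library. The members named here were chosen after their values were seen. 21ur-11105 (intergenic) was called lower in *pup-1(0)* (0.620, 3.27 and 2.28 CPM) and in the double mutant (3.48, 1.06 and 2.87 CPM), against 1.58 to 18.2 CPM (median 9.93 CPM) in wild type. 21ur-15452 (intergenic) was called lower in *pup-1(0)* (2.48, 0.980 and 0.543 CPM) and in the triple mutant (2.68, 0.788 and 0.652 CPM), against 0.317 to 12.0 CPM in wild type. 21ur-12138, in an intron of *T19E7.6*, was called higher in the double mutant (0, 4.01 and 5.39 CPM) and in the triple mutant (0.670, 5.20 and 2.09 CPM), against 0.219 to 0.779 CPM in wild type. 21ur-6666 had no count in the 3 triple mutant libraries and 0 to 23 counts in wild type, which made it at least 4.95-fold lower in the triple mutant when 3 counts over the group were taken as the floor. No member was called in the same direction in all 4 strains that lack *pup-1*.

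Of a list of 25 genes that act in piRNA transcription, processing or downstream silencing, 14 had siRNAs listed in the table under their names, and all 14 were tested. These siRNAs are reads antisense to each gene and do not measure its mRNA. None passed both thresholds as higher in any strain. Some were higher by less than 1 on the log2 scale with an adjusted p below 0.05 in edgeR's test. These were 4 genes in *pup-1(0)*, 3 in the double, 4 in the triple and 5 in the quadruple mutant. Lower by less than 1 at the same threshold were 3, 3, 2 and 0 genes, in this order. The like share of all sRNAs was not counted. A looser measure, an unadjusted p under 0.05 at any fold, was met by 45.1, 43.8, 40.4 and 44.1% of all sRNAs tested in these 4 strains by the same test. Past both thresholds, 1, 1, 1 and 2 of the 14 genes were lower in these strains, beside 13.5, 12.5, 11.9 and 12.9% of all sRNAs tested. The 3 named next were picked with their values in view. *attf-6* had siRNAs whose log2 fold change was 0.86 in *pup-1(0)* (399.7 ± 19.8 CPM against 220.1 ± 24.9 CPM in wild type, adjusted p = 5.04e-08 in edgeR's test) and 0.55 to 0.65 in the other 3 strains that lack *pup-1*. In *pup-1(0)* it was 0.96 for *tofu-4* and 0.93 for *snpc-4*, which encodes a transcription factor of piRNA genes (adjusted p = 4.10e-05 and 2.30e-04 in edgeR's test). The siRNAs of *parn-1*, which encodes the trimming exonuclease, were lower in *pup-1(0)* (452 ± 94.2 CPM), the triple mutant (466 ± 32.5 CPM) and the quadruple mutant (450.0 ± 21.7 CPM) than in wild type (949 ± 279.7 CPM; SD, n = 3 and 6). Their log2 fold changes were -1.07, -1.02 and -1.08 (adjusted p = 9.83e-05, 1.94e-04 and 9.31e-05 in edgeR's test). In the double mutant they stood at 704 ± 23.9 CPM and were not called (log2 fold change -0.43, adjusted p = 0.0743). The siRNAs of *tost-1*, whose product binds the PETISCO complex in a form apart from the one with PID-1 that acts on piRNA precursors, were lower in the double mutant (3.81 ± 2.64 CPM) and the quadruple mutant (4.81 ± 0.711 CPM) than in wild type (11.1 ± 0.985 CPM). The siRNAs of *prg-1* stood at 1136 ± 272 CPM in *pup-1(0)*, 876 ± 73.6 CPM in the double mutant, 799.8 ± 55.7 CPM in the triple mutant and 1190 ± 91.8 CPM in the quadruple mutant, against 1102 ± 237 CPM in wild type. No strain was called, although the triple mutant had an adjusted p of 0.0242 at a log2 fold change of -0.46 in edgeR's test.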

How the data were processed

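The deposited values are counts, 1 whole number per sRNA and library, without normalization. The authors trimmed adapters with cutadapt, kept reads of 15 to 26 bases, aligned them by HISAT2 and used smalldisco for counting. Reads on piRNAs and miRNAs were counted on both strands, whatever their 3′ tail, and siRNAs were summed antisense to coding sequence. Counting used the WS272 gene set. Positions here come from Ensembl 115 on WBcel235, which held 20147 of the 20150 listed IDs.

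Analysis used edgeR 4.0.16 and DESeq2 1.42.0 in R 4.3.3, and figures were drawn with matplotlib 3.10.9. The filterByExpr function of edgeR (minimum count 10) chose the sRNAs, which were scaled by TMM and fitted in 1 quasi-likelihood model with genotype as its only term. Each of 7 mutant strains was compared with 6 wild-type libraries, with Benjamini-Hochberg adjustment over all 9645 sRNAs tested. For summed levels and shares, a two-sided exact permutation test was used, with 84 ways to assign 3 of 9 labels. Labels do not say that replicates were separate cultures, whereas the methods call them independent. p-values therefore measure the spread between these libraries. The study's EDASeq and RUVSeq scaling is named without its functions, so TMM was used and 6 factors from replicate groups were an alternative, as were other scalings, filters, subsets of the wild-type libraries, DESeq2, and leaving out libraries or members. Counts simulated for the quadruple mutant, with a log2 change of 2 in some sRNAs, served as a check. Of 50 changed left-cluster piRNAs 12 were called, and of all 200 changed sRNAs 107. Among 9083 unchanged sRNAs 5 were called.

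Members were named by a rule of 3 parts. The first part was the 10 highest in wild type. The second took up to 3 rises and 3 falls for *pup-1(0)* and the quadruple mutant, and 1 of each for other strains. It took them among called members whose mutant libraries all lay above, or all below, every wild-type library. The third was members called alike in all 4 strains that lack *pup-1*. Only *pup-1(0)* and the quadruple mutant gave members under the second part, and none met the third. Members, lists and tests were chosen with earlier results of these data known.

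The labels give mutant and wild-type libraries the same replicate numbers. Correlations of same-numbered libraries' deviations from their genotype means, over all sRNAs tested, were 0.404, 0.103 and 0.202 between the quadruple mutant and wild type. All 3 were above 0.1, and on this ground alone the numbers were used as pairs for that strain. Only quadruple replicate 1 correlated best with the wild-type library of its own number. Quadruple replicate 2 correlated best with wild-type replicate 6 (0.373), and quadruple replicate 3 with wild-type replicate 2 (0.303). The pairing is thus not established for these 2 libraries. For its tailing filter the study compared 3 mutant with 3 wild-type replicates run in parallel, and its methods do not name them. The tests here used all 6. In each of the other 6 strains at least 1 of the 3 was below 0.1, and the numbers were not taken as pairs.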

Additional observations from a re-analysis of the deposited data

Results flagged for a closer look

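Within the 6 wild-type libraries, replicate 1 stood far above the next library for the summed level of the left cluster, at 4575 CPM. The same library did so for 9 of the 10 most abundant members. These 10 were chosen by a mean that includes replicate 1, so their flags follow in part from that choice. This library had 468 CPM of 21ur-5622, 388 CPM of 21ur-8472, 280.0 CPM of 21ur-6053, 193 CPM of 21ur-2309 and 102 CPM of 21ur-3128. It also had 93.8 CPM of 21ur-5083, 77.6 CPM of 21ur-4253 and 75.5 CPM of both 21ur-4021 and 21ur-14741. 21ur-1430, whose row shares its reads with *cel-mir-790*, was the exception among the 10. For 21ur-1022, named for its rise in the quadruple mutant, wild-type replicate 4 stood above the others at 1.04 CPM, or 4 counts. In all, 19 groups of values were examined by Dixon's test at its 95% level, which flags about 1 group in 20 by chance, and the members share libraries. Wild-type replicate 1 had 2054529 counts, the lowest total in wild type, and 5.72% of them on piRNAs, the highest share of the 27 libraries. The part of depth in these values was not tested.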

How the results depend on the processing

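Values are given in the order *pup-1(0)*, then the *pup-2*, *pup-3* and *pup-4* single mutants, then double, triple and quadruple mutant, where all are listed. Counts of called members were 13, 0, 0, 0, 12, 4 and 6 of 237 tested. They were 3, 0, 0, 0, 3, 2 and 1 of 39 with at least 10 CPM in 3 libraries, and 7, 0, 0, 0, 3, 3 and 1 of 54 with a minimum count of 50. Without a filter they were 11, 0, 0, 0, 31, 5 and 11 of 1687. Of 237 members, 6 factors from replicate groups gave 8, 3, 2, 0, 11, 9 and 8, size factors of DESeq2 gave 11, 0, 0, 0, 19, 5 and 8, and total counts gave 12, 0, 0, 0, 10, 7 and 13. DESeq2 itself called 28, 0, 2, 0, 25, 14 and 17, of 434, 192, 254, 9, 538, 434 and 505 members. piRNA rows alone gave 1, 0, 0, 0, 1, 0 and 2 of 266, wild-type replicates 1 to 3 alone 11, 0, 0, 2, 3, 8 and 27 of 232, and wild-type replicates 4 to 6 alone 31, 5, 7, 0, 55, 21 and 8 of 231. Without the 5 libraries of lowest depth (2054529 counts or fewer), a choice made after seeing the data, they were 18, 10, 2, 0, 70, 15 and 18 of 252. Calls over all sRNAs moved as well. In the double mutant they were 2877 of 10012 in that fit, 2723 of 9672 with wild-type replicates 4 to 6 and 2039 of 9645 in the main fit. Without a filter the double mutant had 2147 of 20150. In the quadruple mutant they were 2212 of 9581 with wild-type replicates 1 to 3 and 2046 of 9645 in the main fit. In *pup-1(0)* they were 2395 of 11918 in DESeq2, 2373 of 9672 with wild-type replicates 4 to 6 and 2023 in the main fit. In *pup-4(0)* they were 203 of 9581 with wild-type replicates 1 to 3 and 5 in the main fit. Leaving out 1 library gave 4 to 21, 0 to 3, 0 to 1, 0 to 0, 4 to 59, 1 to 14 and 2 to 13 called members, with 226 to 294 members tested. Fewer members or libraries entered several of these fits, and otherwise the cause was not tested.

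With the replicate block the counts were 3, 0, 0, 3, 2, 1 and 29. Of all sRNAs tested, 18.4, 0.539, 0.363, 2.21, 17.3, 15.9 and 22.6% were called in that fit. Between same-numbered libraries the log2 difference of the summed level in the quadruple mutant was -0.01, a value with no usable test. The numbers were not used as pairs for any other strain.

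The summed level changed sign in several settings, none of which gave a call. For *pup-1(0)* the difference was 0.01 with total counts, 0.51 with miRNA counts as scaling (chosen after seeing the data), 0.10 with wild-type replicates 4 to 6, 0.50 without the shallow libraries and -0.35 to 0.31 without 1 library. For *pup-3(0)* it was -0.16 with miRNA scaling and -0.33 without the 10 most abundant members, as without exonic members. For *pup-4(0)* it was 0.13 with total counts, 0.28 with miRNA scaling, 0.07 with wild-type replicates 4 to 6, 0.28 without the shallow libraries, 0.04 without the 10 most abundant members and -0.33 to 0.28 without 1 library. For the triple mutant these settings gave 0.21, 0.67, 0.14, 0.45, 0.07 and -0.26 to 0.35, and leaving out exonic members gave 0.06. For the quadruple mutant it was -0.01 with wild-type replicates 1 to 3 and -0.02 to 0.59 without 1 library. The left share changed sign in *pup-1(0)* with wild-type replicates 1 to 3 (0.0671 points) and without 1 library (-0.630 to 0.189), and in *pup-2(0)* without 1 library (-0.546 to 0.0804). In *pup-3(0)* it was -0.510 without the shallow libraries, -1.0 without the 10 most abundant of each cluster, -1.19 without exonic members and -0.855 to 1.08 without 1 library. Depth limits members near the floor of 3 counts.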
